A study of Mus musculus with 12 samples.

Results

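The genes that mark alveolar type 1 cells were followed in the lungs and livers of newborn *Man1a2* mice. They were taken by symbol from the deposited counts and were 10 of 24421 genes listed: *Ager*, *Aqp5*, *Hopx*, *Pdpn*, *Rtkn2*, *Akap5*, *Emp2*, *Clic5*, *Cav1* and *Gprc5a*. All 10 were found, and all 10 passed the filter on low counts in lung. RNA was sequenced from lung and liver tissue of 3 *Man1a2*+/+ (WT) mice and 3 *Man1a2*-/- (null) mice, in 12 libraries. The pups came from *Man1a2*+/- parents and were killed 30 to 60 minutes after birth, so the comparison asked how null and WT tissue differed at that time. The paper reports respiratory failure in null mice, with alveoli that had not expanded and thick septa. The part of lung expansion in the gene levels was not tested. *Man1a2* encodes a Golgi mannosidase that trims N-linked glycans. The null allele lacks exon 2 of the gene in every cell of the animal, and sex and strain background are not given in the sources used here.

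Alveolar type 1 cells are the thin, flat cells that cover most of the gas exchange surface of the lung. They share the alveolus with the cuboidal type 2 cells, which make surfactant and can give rise to type 1 cells. In the mouse, type 1 cells flatten shortly before and after birth, in air spaces that must open for breathing, and stretch-sensitive signalling through the YAP and TAZ co-factors is known to bear on this step. Several of the 10 genes are also used by other cells: *Cav1* is abundant in endothelium, *Pdpn* in lymphatic endothelium and mesothelium, and *Hopx* in heart muscle.

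Levels are given as CPM, which are counts scaled to the library's total of counted reads, and comparisons between genes as RPKM, which are also divided by exon length, with exon lengths from GENCODE M21. Depth ran from 26759463 to 42914295 counted reads per library, at which 3 reads stand at 0.0699 to 0.112 CPM. *Man1a2* itself stood at 104.6 to 147.7 CPM in WT lungs and at 55.9, 59.4 and 63.4 CPM in null lungs 1, 2 and 3, so no null lung overlapped the WT range. Reads outside the deleted exon are part of these counts. In liver, *Man1a2* stood at 40.7 to 71.5 CPM in WT and at 33.7 to 40.2 CPM in null libraries.

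The library labelled null lung 1 stood apart from the other lungs. Across genes, its log2 CPM correlated with the other 5 lungs at 0.812 to 0.831, and those 5 among themselves at 0.940 to 0.991. The defining genes of the distal lung were almost absent from it. The type 2 gene *Sftpc* stood at 34.8 CPM against 15039 to 20989 CPM in the other 5 lungs, and *Nkx2-1*, the lung's lineage factor, at 23.3 CPM against 242 to 336 CPM. The 8 airway markers summed to 4093 CPM, within the 3418 to 4147 CPM of WT lungs. Among them *Scgb3a2* stood at 3095 CPM against 903 to 914 CPM in WT, and *Scgb1a1* at 248 CPM against 2227 to 2680 CPM. Genes of heart and skeletal muscle were high in null lung 1, with *Nppa* at 7819 CPM and *Acta1* at 5005 CPM. So were the squamous keratins *Krt13* at 776 CPM and *Krt4* at 965 CPM. For this reason WT lungs were compared with null lungs 2 and 3, the values of null lung 1 are shown apart, and the comparison of all 6 lungs is given after it. *Nkx2-1*, *Sftpc*, *Scgb1a1*, *Nppa*, *Acta1* and *Krt4* were chosen after their values were seen.

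In the WT lung the 10 genes covered a wide range of levels. Per length, *Ager* was the most abundant at 706 ± 24.1 RPKM (SD, n = 3), followed by *Gprc5a* at 609 ± 21.4 RPKM, *Cav1* at 436 ± 55.3 RPKM, *Hopx* at 333 ± 12.2 RPKM and *Emp2* at 276 ± 17.1 RPKM. *Aqp5* stood at 146 ± 2.30 RPKM and *Clic5* at 105 ± 7.35 RPKM. *Akap5* at 81.6 ± 4.84 RPKM, *Pdpn* at 61.4 ± 1.61 RPKM and *Rtkn2* at 23.3 ± 1.51 RPKM were the lowest. No 2 neighbours in this order overlapped over the 3 WT libraries. The order rests on the lengths taken from the annotation.

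In null lungs 2 and 3, 6 of the 10 genes were lower than in WT and none was higher. *Akap5* fell the most, followed by *Rtkn2*, *Pdpn*, *Clic5*, *Emp2* and *Hopx*, while *Ager*, *Aqp5*, *Gprc5a* and *Cav1* did not pass the test. A gene was called where edgeR's quasi-likelihood test gave 1.2-fold or more with an adjusted p (Benjamini-Hochberg, over 15885 genes) under 0.05. Of all genes tested, 19.0% were called lower and 18.0% higher. The median log2 fold change of the 10 genes was -0.74, against -0.01 over all genes tested. In 8 of the 10 genes, all but *Ager* and *Cav1*, both null libraries lay below every WT library in CPM, an arrangement that 41.7% of all genes tested also showed. In bulk tissue, fewer type 1 cells and less RNA per cell cannot be told apart.

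**Figure D1:**
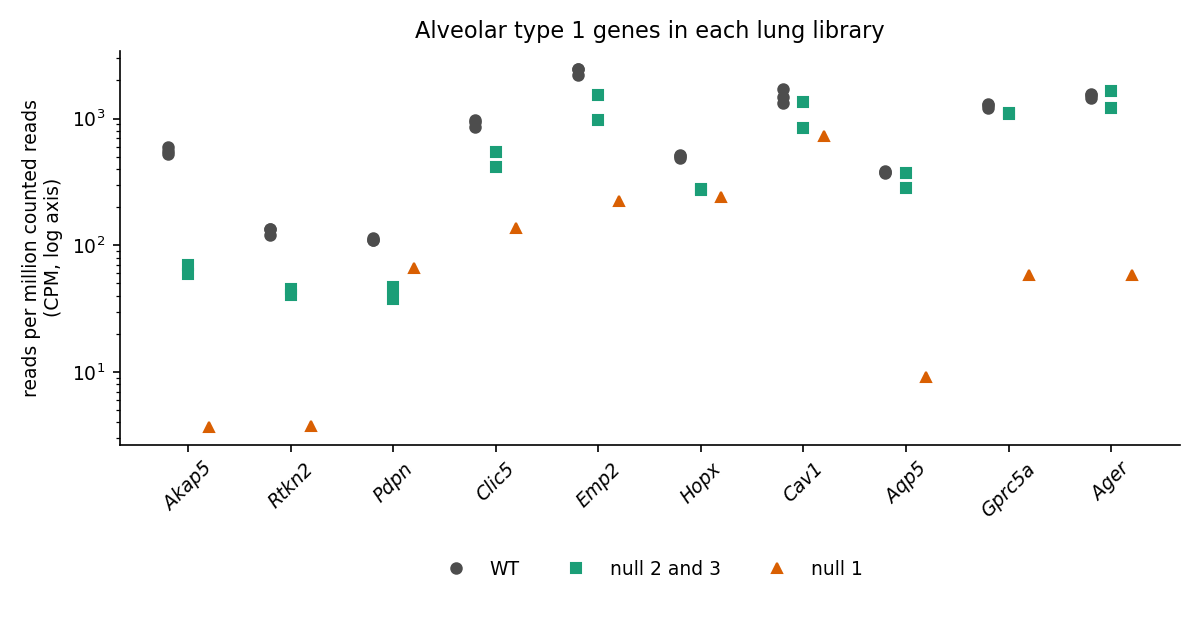
Level of each of the 10 genes in each lung library, in CPM on a log axis, with 3 WT libraries (circles), null lungs 2 and 3 (squares) and null lung 1 (triangles). *Akap5* lies at 526 to 592 CPM in WT and at 70.0 and 59.5 CPM in null lungs 2 and 3, whereas *Ager* lies at 1454 to 1553 CPM in WT and at 1642 and 1217 CPM in null lungs 2 and 3.

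Among the genes of the cell surface, *Ager*, *Aqp5* and *Gprc5a* showed the smallest differences. *Ager* encodes RAGE, a receptor of the immunoglobulin family that sits in the basal membrane of type 1 cells, and lies on chromosome 17 (GRCm38, 34597862-34600936, + strand). It stood at 1553, 1526 and 1454 CPM in WT lungs 1, 2 and 3 and at 1642 and 1217 CPM in null lungs 2 and 3. Null lung 2 was thus above and null lung 3 below all WT libraries. The log2 fold change was 0.08 (SE 0.14, adjusted p = 0.712).

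*Aqp5* encodes the water channel of the apical membrane (chromosome 15, 99590782-99594829, + strand). It stood at 376, 375 and 386 CPM in the WT lungs and at 283 and 369 CPM in null lungs 2 and 3. Both null values were below the WT range, one of them only just. This gave a log2 fold change of -0.07 (SE 0.12, adjusted p = 0.685).

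*Gprc5a*, an orphan receptor induced by retinoic acid (chromosome 6, 135065651-135084709, + strand), stood at 1284, 1219 and 1304 CPM in WT lungs. Null lungs 2 and 3 stood at 1083 and 1103 CPM, both below the WT range. The groups did not overlap on this scale of total reads, but the log2 fold change after TMM scaling was -0.06 (SE 0.09, adjusted p = 0.618).

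Among the genes of membrane domains, *Cav1* did not pass the test whereas *Emp2* and *Pdpn* fell. *Cav1* encodes caveolin-1, which forms caveolae in type 1 and endothelial cells (chromosome 6, 17306335-17341452, + strand). It stood at 1320.4, 1700.0 and 1481 CPM in WT lungs and at 1344 and 841 CPM in null lungs 2 and 3. Null lung 2 lay within the WT range and null lung 3 well below it, and the log2 fold change was -0.30 (SE 0.21, adjusted p = 0.291). Without null lung 2 it became -0.70 with adjusted p = 0.0153, and without null lung 3 it was 0.04, so the 2 null libraries gave different answers for *Cav1*.

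*Emp2* encodes a tetraspan membrane protein (chromosome 16, 10281749-10313968, - strand). It had the most reads of the 10 genes, at 2218, 2471 and 2477 CPM in WT lungs, and stood at 1540.2 and 975 CPM in null lungs 2 and 3. Both null values lay below all WT values, and they differed from each other by 1.58-fold. The log2 fold change was -0.77 (SE 0.19, adjusted p = 0.0189). The call was lost without WT lung 2 (adjusted p = 0.0517) and without WT lung 3 (adjusted p = 0.0636), and the value ran from -0.44 without null lung 3 to -1.16 without null lung 2.

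*Pdpn* encodes podoplanin, a mucin-type glycoprotein of the apical membrane that is the classical T1α antigen (chromosome 4, 143267431-143299564, - strand). It stood at 110.4, 115 and 109.5 CPM in WT lungs, a spread of 2.62% of the mean, and at 47.1 and 37.5 CPM in null lungs 2 and 3. The groups were far apart, with a log2 fold change of -1.25 (SE 0.13, adjusted p = 0.00101), a 2.37-fold fall.

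Among the genes that anchor signals and the cytoskeleton, *Akap5* encodes an anchoring protein that holds protein kinase A at the plasma membrane (chromosome 12, 76324891-76334153, + strand). It stood at 526, 554 and 592 CPM in WT lungs and at 70.0 and 59.5 CPM in null lungs 2 and 3, that is 12.6% and 10.7% of the WT mean. The log2 fold change was -2.95 (SE 0.13, adjusted p = 0.000319), a 7.73-fold fall.

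*Rtkn2* (chromosome 10, 67979570-68059740, + strand) stood at 119.6, 134 and 134 CPM in WT lungs and at 40.6 and 45.3 CPM in null lungs 2 and 3. These were 31.4% and 35.0% of the WT mean. On the log2 scale the change was -1.44 (SE 0.10, adjusted p = 0.000474). An exon of *Gm16212* overlaps *Rtkn2* on the opposite strand, and whether the counting used strand is not given, so its level is uncertain to that extent.

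*Clic5*, an intracellular chloride channel protein bound to the actin cortex (chromosome 17, 44188584-44280172, + strand), stood at 851, 979 and 935 CPM in WT lungs and at 544 and 412 CPM in null lungs 2 and 3. The groups did not overlap, and the change on the log2 scale was -0.79 (SE 0.15, adjusted p = 0.00623).

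*Hopx*, a homeodomain protein that does not bind DNA itself and marks the type 1 lineage early (chromosome 5, 77086988-77115121, - strand), was the only nuclear regulator among the 10. It stood at 484, 520.1 and 510 CPM in WT lungs and at 274 and 280.4 CPM in null lungs 2 and 3. The null libraries agreed closely, and the log2 fold change was -0.71 (SE 0.09, adjusted p = 0.00190). *Hopxos* overlaps an exon of *Hopx* on the opposite strand, with the same uncertainty as for *Rtkn2*.

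*Akap5*, *Rtkn2*, *Pdpn*, *Clic5* and *Hopx* stayed called when any 1 of the 5 libraries was left out, and DESeq2 called the same 6 genes as edgeR. In the fit of all libraries but null lung 1, whose spread is estimated over both tissues, *Emp2* (adjusted p = 0.0797) and *Clic5* (adjusted p = 0.478) were no longer called. Scaling to 8 general epithelial genes in place of all genes, an alternative added after the data were seen, moved the median log2 fold change of all genes to -0.35 and that of the 10 genes to -1.08. Under it 35.3% of all genes tested were called lower, and *Cav1* and *Gprc5a* were called as well, at -0.64 and -0.40, while *Ager* went to -0.27 and was not called. The sign for *Ager* is therefore not fixed, and it also turned with upper-quartile factors (-0.0015) and without null lung 2 (-0.18).

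**Figure D2:**
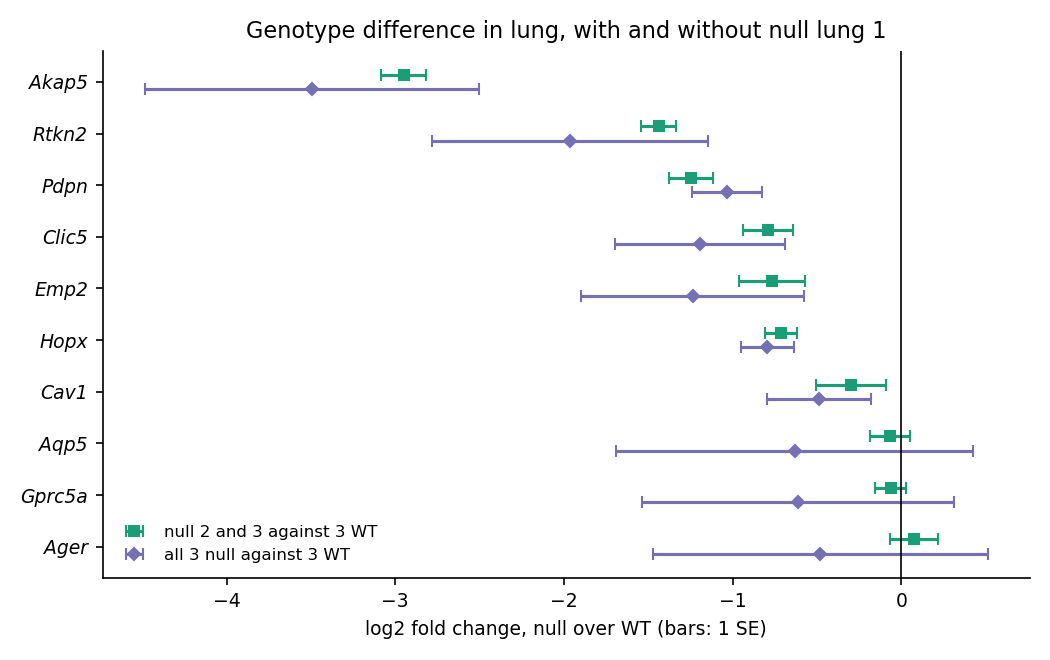
Log2 fold change of null over WT in lung, with 1 standard error, for null lungs 2 and 3 (squares) and for all 3 null lungs (diamonds) against the same 3 WT lungs. For *Akap5* the squares sit at -2.95 and the diamonds at -3.50, and the standard error grows from 0.13 to 0.99 when null lung 1 is included.

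Because RAGE is a common measure of type 1 cell content, each gene was also set against *Ager* in the same library, as a log2 ratio of CPM. This ratio does not depend on library scaling. *Akap5* stood at -1.56, -1.46 and -1.30 relative to *Ager* in WT lungs and at -4.55 and -4.35 in null lungs 2 and 3. *Pdpn* stood at -3.73 to -3.81 in WT and at -5.12 and -5.02 in null lungs 2 and 3, and *Rtkn2* at -3.44 to -3.70 in WT and at -5.34 and -4.75 in null. *Hopx*, *Clic5* and *Emp2* were likewise below their WT ranges in both null libraries. *Cav1* stood at -0.29 and -0.53 against -0.23 to 0.16 in WT. *Gprc5a* and *Aqp5* were on both sides of their WT ranges, at -0.60 and -0.14 for *Gprc5a* and -2.53 and -1.72 for *Aqp5*. The 10 genes did not change by a common factor in null lungs 2 and 3.

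**Figure D3:**
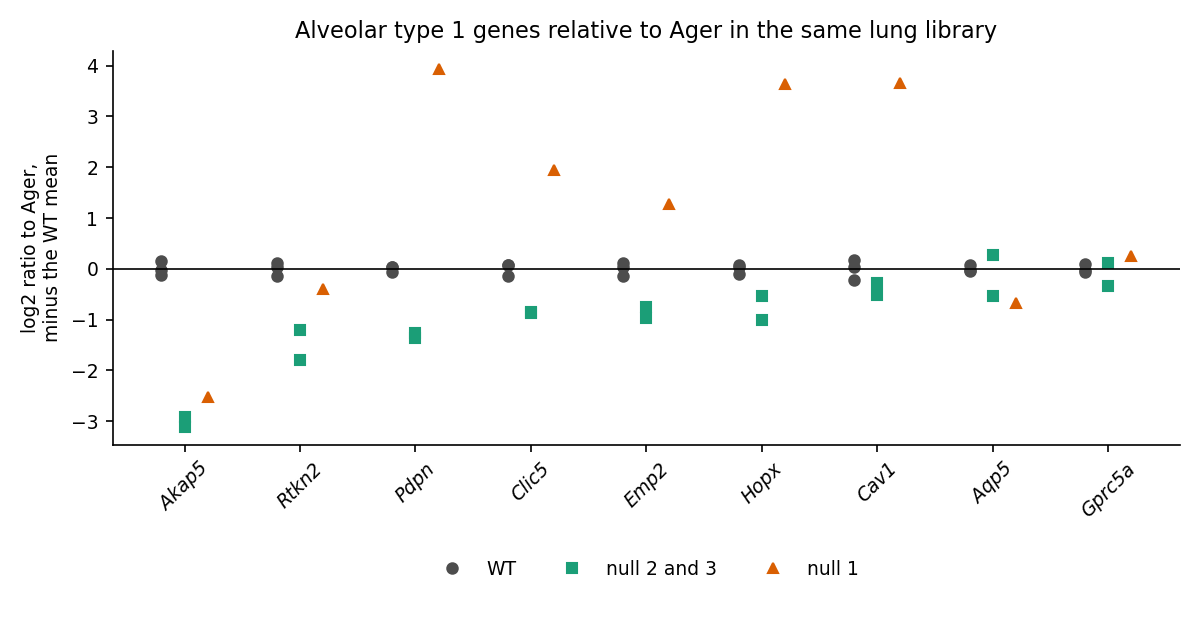
Log2 ratio of each gene to *Ager* in the same lung library, minus the mean of the 3 WT libraries, for WT (circles), null lungs 2 and 3 (squares) and null lung 1 (triangles). *Akap5*, *Rtkn2*, *Pdpn*, *Clic5*, *Emp2* and *Hopx* lie below 0 in null lungs 2 and 3, and *Pdpn*, *Hopx* and *Cav1* lie far above 0 in null lung 1.

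Null lung 1 was lower than every WT lung for all 10 genes, but to very different degrees. The share of all genes with this arrangement in null lung 1 was not counted. *Akap5* stood at 3.70 CPM, 0.664% of the WT mean, *Aqp5* at 9.12 CPM or 2.41%, *Rtkn2* at 3.74 CPM or 2.89%, *Ager* at 57.9 CPM or 3.83% and *Gprc5a* at 58.3 CPM or 4.59%. *Emp2* stood at 222 CPM or 9.29% and *Clic5* at 136 CPM or 14.8%. *Cav1* at 724 CPM, *Hopx* at 242 CPM and *Pdpn* at 65.7 CPM kept 48.3%, 48.1% and 58.9% of the WT mean, and *Pdpn* was above both other null lungs. The 10 muscle markers summed to 33090 CPM in this library against 324 to 544 CPM in WT lungs, and the 7 fibroblast markers to 15361 CPM against 2924 to 3486 CPM. The 10 type 2 markers summed to 257 CPM against 30825 to 35130 CPM, with no marker at 0 counts. The part of other tissue in the values of *Cav1*, *Hopx* and *Pdpn* was not tested.

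When all 6 lungs were compared, none of the 10 genes was called (0 of 10), and 0.327% of 15591 genes tested were called in all. All 10 log2 fold changes were below 0, where 45.5% of those of all genes tested were below 0. The median of the 10 was -0.91. *Akap5* (-3.50, SE 0.99, adjusted p = 0.116), *Pdpn* (-1.03, SE 0.21, adjusted p = 0.0722) and *Hopx* (-0.80, SE 0.16, adjusted p = 0.0698) had an unadjusted p under 0.05, and DESeq2 called these 3. Of all 15591 genes tested, 3898 had an unadjusted p under 0.05, and DESeq2 called 2355 genes. *Ager* stood at -0.48 with a standard error of 0.99. This comparison and the one with null lungs 2 and 3 share their 3 WT libraries and both null libraries.

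Over the 6 lungs, the genes whose log2 CPM followed *Ager* most closely were *Scnn1a*, *Lamp3*, *Hhip*, *Cxcl15* and *Sftpc*, with Pearson correlations of 0.9998, 0.9994, 0.9992, 0.9991 and 0.9991 among 13413 genes. Of the other members, *Gprc5a* (0.996) and *Aqp5* (0.991) followed it closely, *Hopx* (0.58) and *Pdpn* (0.15) did not. These are descriptions over 6 libraries, and 134 genes passed 0.99. They lean on null lung 1, where *Ager* stood at 3.83% of its WT mean. In null lungs 2 and 3, *Ager* stood at 109% and 80.5% of its WT mean. *Aqp5* went the other way there, at 74.8% and 97.3%. The 5 closest genes stood in null lung 1 at 0.190% to 13.6% of their WT means. No correlation was taken over the other 5 libraries, which were too few.

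Of 14 further genes of type 1 cells tested in null lungs 2 and 3, 7 were called lower and none higher, where 19.0% of all genes tested were called lower and 18.0% higher. Their median log2 fold change was -0.66, against -0.01 over all genes. When scaled to the epithelial genes, 12 were called lower, as were 35.3% of all genes tested. *Ndnf*, a secreted factor, changed by -1.84 (SE 0.17), from 219 to 267 CPM in WT to 68.9 and 51.8 CPM. *Cldn18*, the claudin of alveolar tight junctions, changed by -1.31 (SE 0.13), *Spock2*, a matrix proteoglycan, by -1.02 (SE 0.13) and *Clic3* by -1.01 (SE 0.12). *Vegfa*, *Limch1* and *Krt7* were the other 3 called, and 7 genes did not pass the test.

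Genes that coat or shape caveolae were set beside *Cav1*. Of 8 tested, 5 were called lower and 1 higher, where 19.0% of all genes tested were called lower and 18.0% higher. *Cav2* (-0.37, SE 0.19) and *Cav3* (0.76, SE 0.27) did not pass the test. *Prkcdbp* (cavin-3) changed by -1.68 (SE 0.13), the ATPase *Ehd2* by -1.45 (SE 0.11), *Sdpr* (cavin-2) by -1.15 (SE 0.10) and *Ptrf* (cavin-1) by -0.63 (SE 0.14), and *Pacsin2*, the fifth, by -0.49 (SE 0.11). These genes are also used by endothelium. *Murc* (cavin-4), which is a muscle gene, rose by 1.02 (SE 0.19). The summed level of the 8 was 2649 to 2654 CPM in WT lungs and 1402 and 1289 CPM in null lungs 2 and 3.

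Of 14 factors and co-factors tied to type 1 fate and the Hippo pathway, 5 were called higher and 1 lower, but 2 higher and 3 lower when scaled to the epithelial genes. Before that scaling, 18.0% of all genes tested were called higher and 19.0% lower. Under it, 983 of 15885 genes tested were called higher and 35.3% lower. *Lats1*, a kinase that restrains YAP, rose by 0.79 (SE 0.10), *Lats2* by 0.39 (SE 0.09), *Wwtr1*, which encodes TAZ, by 0.64 (SE 0.13) and *Yap1* by 0.37 (SE 0.10). *Ankrd1*, a target of this pathway that is abundant in heart muscle, rose by 0.98 (SE 0.25), and *Tead2* fell by 0.49 (SE 0.13). In the same list, *Ctgf* (-0.18, SE 0.27), *Cyr61* (0.51, SE 0.22) and *Amotl2* (0.27, SE 0.21) did not pass the test. *Nkx2-1* did not pass the test (0.00, SE 0.13). *Yap1*, *Ctgf*, *Cyr61*, *Amotl2*, *Pacsin2*, *Cav2* and *Cav3* were named after their values were seen.

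Markers of other cells were counted in the same comparison, against the same 19.0% lower and 18.0% higher over all genes. When scaled to the epithelial genes, 35.3% of all genes tested were called lower and 983 of 15885 higher. Of 10 type 2 genes, *Lyz2* (0.83, SE 0.16) and *Sftpa1* (0.48, SE 0.09) rose and *Slc34a2* (-0.36, SE 0.10) fell, with a median of 0.00 over the list (5 lower and none higher when scaled to the epithelial genes). Of 8 general epithelial genes, *Cdh1* (0.88, SE 0.11), *Epcam* (0.65, SE 0.11) and *Krt18* (0.63, SE 0.14) rose and none fell. Of 8 blood endothelial genes, *Emcn* (0.90, SE 0.19) and *Cdh5* (0.59, SE 0.15) rose while *Ramp2* (-0.96, SE 0.12) and *Tek* (-0.89, SE 0.14) fell. Of 5 mesothelial genes, *Upk1b* (-1.21, SE 0.22) and *Msln* (-0.62, SE 0.16) fell, and the list's summed level was 465 and 323 CPM in null lungs 2 and 3 against 608 to 838 CPM in WT. *Pdpn* is also a gene of mesothelium and lymphatic endothelium, and the summed lymphatic level was 530 and 800.2 CPM in null lungs 2 and 3 against 850.2 to 994 CPM in WT. Most of that sum was *Lyve1*, with a WT mean of 855 CPM and a change that did not pass the test (-0.38, SE 0.18), while the median over the 4 lymphatic genes tested was 0.38. The part of these cells in the fall of *Pdpn* was not tested.

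Of 10 heart and skeletal muscle markers, 7 rose in null lungs 2 and 3, and their summed level was 792 and 685 CPM. The largest change was that of *Myh8* (1.90, SE 0.47), followed by *Ckm* (1.504, SE 0.22), *Myh6* (1.42, SE 0.24) and *Myl7* (1.14, SE 0.19). The level of *Myh8* was low, at 0.255 to 0.919 CPM in WT lungs and 2.34 and 1.58 CPM in null lungs 2 and 3. Single genes were called in the airway list (*Scgb3a2*, 1.23, SE 0.24), the lymphatic list (*Reln*, 0.67, SE 0.21) and the squamous list (*Krt13*, 2.14, SE 0.45). *Krt13* was also low, at 0.653 to 0.668 CPM in WT lungs and 3.88 and 1.35 CPM in null lungs 2 and 3. Of 7 fibroblast genes, *Pdgfra* rose by 0.64 (SE 0.11) and *Tcf21* changed by -1.06 (SE 0.12). None of the 5 leukocyte, 3 thymus, 2 red cell or 6 hepatocyte genes was called. Scaled to the epithelial genes, where 35.3% of all genes tested were called lower and 983 of 15885 higher, the counts changed. Then 3 leukocyte genes, 1 thymus gene and 1 lymphatic gene were called lower and no lymphatic gene higher. That scaling called 4 muscle genes higher and 4 mesothelial genes lower, and gave 2 lower and 1 higher in the airway, epithelial and blood endothelial lists, 1 lower and 1 higher in the squamous list, and 1 lower and none higher in the fibroblast list.

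**Figure D4:**
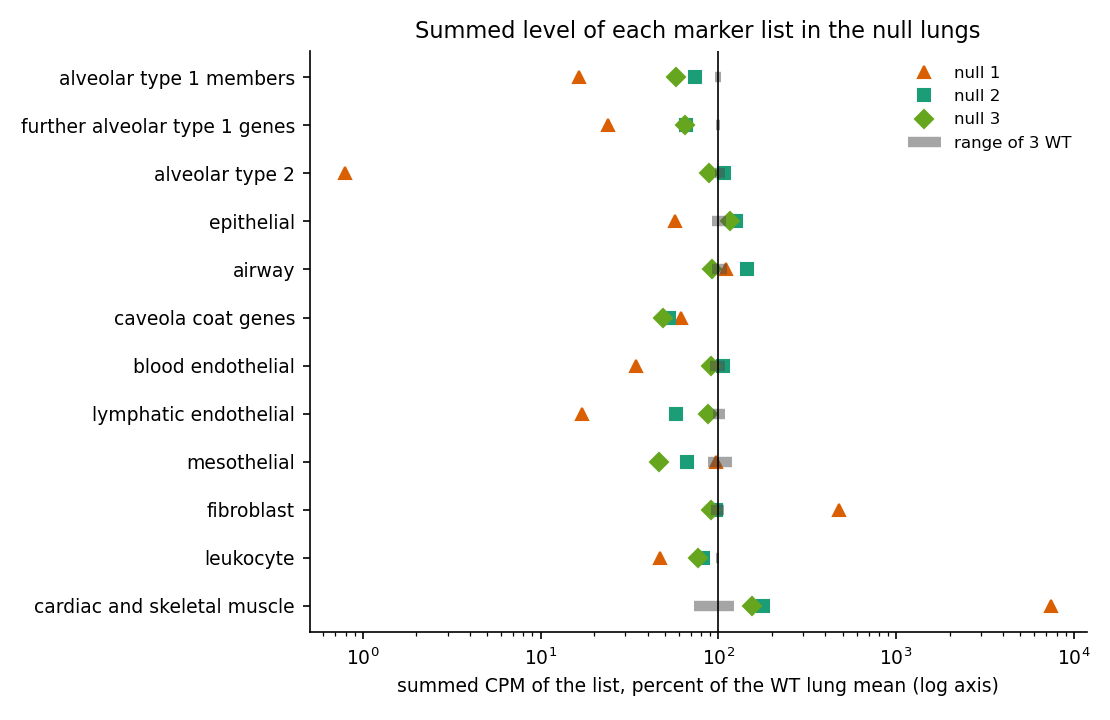
Summed CPM of each list of marker genes in null lungs 1, 2 and 3, as a percent of the WT lung mean on a log axis, with the range of the 3 WT lungs in grey. The 10 type 1 genes sum to 16.4%, 74.1% and 57.6% of WT in null lungs 1, 2 and 3, and the type 2 genes to 0.795%, 108% and 88.2%.

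In liver, 8 of the 10 genes were also detected at 1 CPM or more in at least 3 of 6 libraries. *Aqp5* reached it in 0 and *Akap5* in 2 livers. All 10 were higher in WT lung than in WT liver (10 of 10, where 39.8% of 15635 genes tested were called higher in lung), with log2 fold changes from 4.85 (SE 0.35) for *Cav1* to 9.57 (SE 0.45) for *Aqp5*. The level in WT liver was 0.0775% of that in WT lung for *Aqp5* and 1.97% for *Cav1* and *Hopx*. *Cav1* was the highest of them in liver at 18.9, 44.0 and 26.0 CPM in WT livers 1, 2 and 3 and 70.9, 18.2 and 27.3 CPM in null livers. *Hopx* stood at 10.3, 10.8 and 8.78 CPM in WT and at 11.3, 15.8 and 11.8 CPM in null livers, and the groups did not overlap. The share of all genes whose groups did not overlap in liver was not counted.

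WT liver 2 and null liver 1 held genes of other tissues. WT liver 2 had *Sftpc* at 30.7 CPM against 0.376 and 0.793 CPM in the other WT livers, and it was also the WT liver with the most *Ager* (5.58 CPM), *Gprc5a* (2.82 CPM), *Aqp5* (0.682 CPM), *Akap5* (1.77 CPM), *Emp2* (10.7 CPM), *Hopx* (10.8 CPM), *Clic5* (6.36 CPM) and *Cav1* (44.0 CPM). It was the WT liver with the least *Rtkn2* (0.806 CPM) and *Pdpn* (1.77 CPM). Null liver 1 had *Acta1* at 2620 CPM and *Ckm* at 766 CPM, and it was the liver with the most *Cav1* (70.9 CPM), *Clic5* (14.6 CPM), *Emp2* (16.3 CPM), *Rtkn2* (2.01 CPM) and *Pdpn* (5.52 CPM). The part of other tissue in these levels was not tested.

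**Figure D5:**
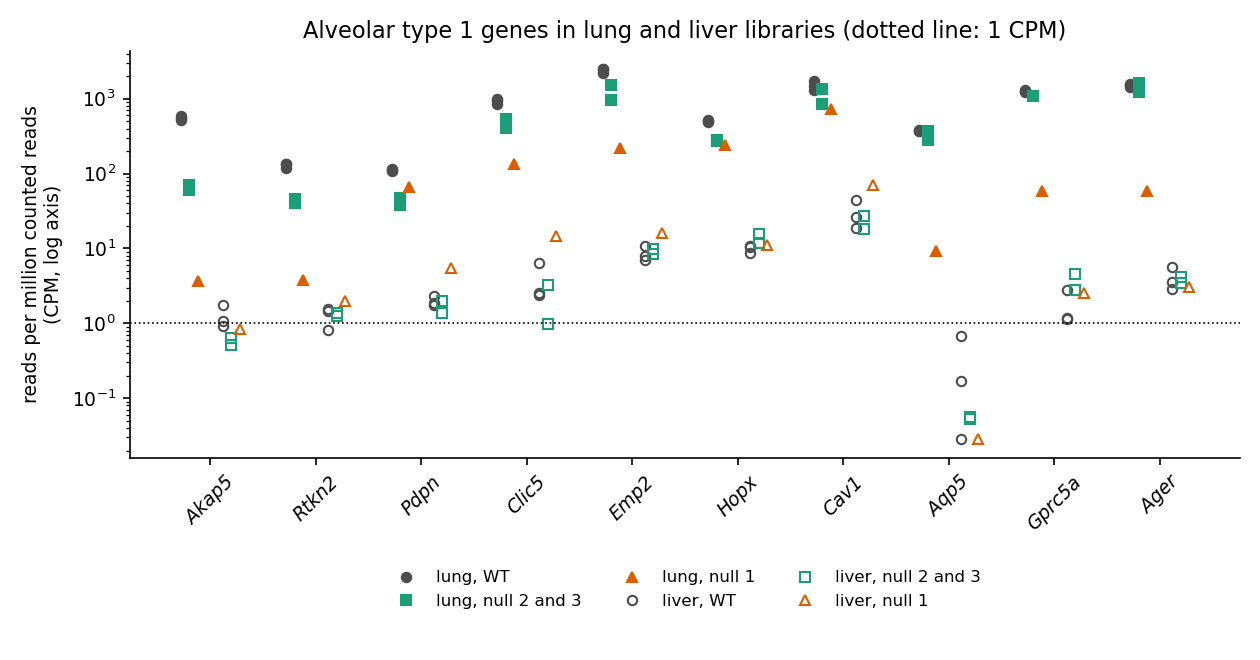
Level of the 10 genes in lung (filled) and liver (open) libraries, in CPM on a log axis, for WT (circles), null 2 and 3 (squares) and null 1 (triangles), with a dotted line at 1 CPM. *Aqp5* lies below 1 CPM in all 6 livers, and *Cav1* at 18.2 to 70.9 CPM.

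Between null and WT livers, none of the 9 genes tested was called (0 of 9), against 26.9% of 14343 genes tested. *Aqp5* was too low to be tested. *Hopx* (0.51, SE 0.17, adjusted p = 0.0632) and *Gprc5a* (1.08, SE 0.46, adjusted p = 0.119) had an unadjusted p under 0.05, and DESeq2 called *Hopx*. Of all 14343 genes tested in liver, 5935 had an unadjusted p under 0.05, and DESeq2 called 4528 genes. Without null liver 1, *Hopx* was called by edgeR at 0.63 (adjusted p = 0.0311), and without WT liver 2, *Gprc5a* at 1.69 (adjusted p = 0.0422). With upper-quartile factors, 65.0% of the liver calls were lower in null, against 49.9% with TMM factors.

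The difference between the tissues was tested as an interaction over all 12 libraries. *Hopx* was the 1 member called (1 of 10, with 0.371% of 16155 genes tested called), and its log2 fold change was 1.31 lower in lung than in liver (-1.31, SE 0.22, adjusted p = 0.0454). It was lower in all 3 null lungs than in every WT lung, and higher in all 3 null livers than in every WT liver. The share of all genes with these arrangements was not counted. With lung and liver of 1 replicate number paired as a block, the difference was the same size at -1.31 (SE 0.20) but was not called (adjusted p = 0.110). Without null lung 1 the difference was called for 813 genes in all, against 60 in the fit of 12 libraries. Among the 813 were *Hopx* (-1.20, adjusted p = 0.0141), *Rtkn2* (-1.82, adjusted p = 0.00898) and *Akap5* (-2.14, adjusted p = 0.0115). Without both null libraries of number 1 the difference was called for 840 genes, among the members also for *Pdpn* (-1.17, adjusted p = 0.0342).

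The promoters of *Akap5*, which fell the most, and of *Ager*, which had no fixed direction, are shown to set their base composition side by side, a pair chosen after the values were seen. Each is the 250 bases before the RefSeq start on GRCm38.p6, written 5′ to 3′ on the gene's strand, with GC boxes (GGGCGG, or CCGCCC on the other strand) in capitals. *Akap5* is at chr12:76324641-76324890 and *Ager* at chr17:34597600-34597849, both on the + strand.
Akap5: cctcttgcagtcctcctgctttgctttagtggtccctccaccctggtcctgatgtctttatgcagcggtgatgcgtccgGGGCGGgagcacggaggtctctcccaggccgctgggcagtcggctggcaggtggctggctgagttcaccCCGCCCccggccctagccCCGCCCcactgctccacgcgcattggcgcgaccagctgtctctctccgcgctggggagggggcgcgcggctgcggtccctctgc
Ager: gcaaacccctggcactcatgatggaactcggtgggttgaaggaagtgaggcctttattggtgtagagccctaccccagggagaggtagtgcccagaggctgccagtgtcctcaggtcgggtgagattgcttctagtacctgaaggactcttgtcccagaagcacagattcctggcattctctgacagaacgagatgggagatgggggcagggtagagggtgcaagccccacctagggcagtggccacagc

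The *Akap5* promoter was 70% G and C with 20 CpG pairs and 3 GC boxes, and the *Ager* promoter was 57.6% G and C with 3 CpG pairs and no GC box. Over 32851 promoters of the same length, the median was 52.4% and 6 CpG pairs, and 32.7% held a GC box. RefSeq promoters were listed for 8 of the 10 genes, not for *Rtkn2* and *Gprc5a*. Of those that fell, *Emp2* and *Clic5* held 2 GC boxes each and *Pdpn* and *Hopx* none, and *Aqp5*, which did not pass the test, held 2. *Cav1*, which did not pass either, held 1 in its promoter 1 and 0 in its promoter 2. Neither the TEAD letters GGAATG (in 12.6% of promoters) nor the NKX2-1 letters CAAGTG (in 11.6%), searched on both strands, occurred in these windows.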

How the data were processed

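RNA from the lung and liver of 3 WT and 3 null newborn mice was measured by stranded, polyadenylated RNA sequencing, in 12 libraries. The authors deposited raw counts, as 1 table per library of whole read numbers by gene symbol, not normalized and with 0 other columns of per-sample values. Per the labels, the submitters' processing notes name FastQC, STAR 2.5.2a, DESeq2 and mm10. The counting program, its strand setting and the annotation are not given in the sources used here. In the tables, 27 gene names had been turned into dates, and haemoglobin genes had almost no counts.

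Libraries were grouped by their labels. Counts were filtered with filterByExpr, scaled with TMM factors and compared by the quasi-likelihood test of edgeR 4.0.16 in R 4.3.3, with Benjamini-Hochberg adjustment over all genes tested. Calls needed an adjusted p under 0.05 and 1.2-fold or more. Libraries came from different mice within a genotype. CPM were scaled to total counts, and RPKM used the exon union of GENCODE M21 on GRCm38. Promoters were RefSeq's on GRCm38.p6. Figures were drawn with matplotlib 3.10.9.

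The members and lists were chosen with earlier results of these data known. All 10 members were named, and of the other lists up to 4 called genes in each direction. Same-numbered WT and null libraries did not deviate together (correlations of -0.15 to 0.13 in lung and -0.06 to 0.16 in liver). Same-numbered lungs and livers of 1 genotype did (0.20 to 0.36 in all 6 pairs), and these numbers, which come from the labels, were taken to pair the organs. The block is given where it ends a call. No library was a copy of another (lowest chi-square per gene 12.8).

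On simulated data in which 200 genes differed by 2 on the log2 scale, edgeR called 196 among the 15885 genes of null lungs 2 and 3 against WT, 116 of 200 with all 6 lungs (15591 genes), 192 of 200 in liver (14343 genes), 198 of 200 between WT tissues (15635 genes) and 113 of 200 for the difference between tissues (16155 genes). False calls numbered 20, 4, 11, 14 and 1. The genes made to differ were drawn only from those above a minimum mean count. The numbers called therefore do not describe genes with few reads, such as *Akap5* and *Aqp5* in liver. As alternatives, DESeq2 1.42.0 was run, and edgeR was run with its size factors or upper-quartile factors, with at least 10 counts per library or 1 count in all, without a fold limit, without the haemoglobin and 20 most abundant genes, with a replicate block, over both tissues in 1 fit and without each library in turn. Added after the data were seen were scaling to 8 epithelial genes and leaving out both null libraries of number 1.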

Additional observations from a re-analysis of the deposited data

Results flagged for a closer look

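*Hopx* differed between the tissues in the effect of the genotype by a log2 fold change of -1.31 (-1.30678). This was by edgeR's interaction test without pairing of the organs (adjusted p = 0.0454). *Hopx* was lower in null than in WT lungs (-0.80) and higher in null than in WT livers (0.51). With lung and liver of 1 replicate number paired as a block, *Hopx* was not called, and that fit called 0 genes. The call was lost in 11 of the 12 fits that left out 1 library, where the adjusted p ran up to 0.159, and it was kept without null lung 1 (adjusted p = 0.0141).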

How the results depend on the processing

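With null lungs 2 and 3, the count of genes called stayed within 1.5 times of 5881 under every alternative but leaving out WT lung 3 (range 3457 to 5397 without 1 library), and the members called numbered 5 to 7 without 1 library, 4 with both tissues in 1 fit and 8 with epithelial scaling. The log2 fold change of *Ager* turned from 0.08 to -0.0015 with upper-quartile factors and to -0.27 with epithelial scaling, and without 1 library it ran from -0.18 to 0.31, that of *Aqp5* from -0.22 to 0.0911 and that of *Cav1* from -0.70 to 0.0363. With all 6 lungs, 51 genes and 0 members were called. DESeq2 called 2355 genes and 3 members, both tissues in 1 fit 2284 genes and 2 members, DESeq2's size factors 2, upper-quartile factors 109 (both with 0 members), at least 10 counts per library 210, at least 1 count in all 0, and dropping the most abundant genes 5. Without 1 library this count ran from 0 to 5881 genes and 0 to 6 members, both highest values being those without null lung 1, and *Ager* from -1.12 to 0.0752.

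In liver, 3856 genes and 0 members were called, and 1 member by DESeq2. Both tissues in 1 fit called 1921 genes. Without 1 library the counts ran from 1641 to 3451 genes and from 0 to 1 members, *Ager* from -0.25 to 0.30, *Pdpn* from -0.0625 to 1.03, *Clic5* from -0.71 to 1.45 and *Cav1* from -0.21 to 0.94, the lowest values of *Pdpn*, *Clic5* and *Cav1* being those without null liver 1. Between WT tissues, 10 members were called under every alternative but the minimum of 10 counts per library, which left 9 to test.

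For the difference between tissues, 60 genes and 1 member were called. DESeq2 called 617 genes, DESeq2's size factors 0 members, at least 10 counts per library 92 genes, at least 1 count in all 33 genes and 0 members, and leaving out both null libraries of number 1 840 genes and 4 members. Without 1 library the counts ran from 0 to 813 genes and 0 to 3 members, with *Ager* from -1.07 to 0.15. The replicate block, which pairs lung and liver, called 0 genes and 0 members here, and it changed no member's call between WT tissues. Within lung, where the numbers do not pair WT with null, it called 0 genes with all 6 lungs and 5626 genes and 6 members with null lungs 2 and 3, and in liver 3263 genes and 0 members. The causes of these changes were not tested. Depth limits the liver values of *Aqp5*, at 1 to 22 reads per library.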
